A study of Rattus norvegicus with 16 samples.

Results

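Among genes that lipopolysaccharide (LPS) induced in rat microglia, those whose level was nearly the same with and without apolipoprotein A-I (ApoA-I) are described here. A gene belonged when its mean in LPS libraries was at least 5 TPM (a transcript level corrected for gene length and scaled to the same sum in every library) and the log2 ratio of LPS to Control means was at least 1.5. The log2 ratio of the means of LPS with ApoA-I and LPS also had to lie within 0.25 of 0, with 1 TPM added to each mean. Of 30560 genes listed, 396 met the conditions on LPS and 58 met all 3. The rule used the Control, LPS and LPS with ApoA-I libraries, so values in these groups are a description of the choice, and only the ApoA-I libraries were outside it.

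RNA was sequenced in bulk from primary wild type rat microglia at day 12 in vitro. Control cells received neither agent, ApoA-I cells received ApoA-I protein at 100 ug/ml, LPS cells received LPS at 100 ng/ml for 20 hours, and the fourth group received both. Each group had 4 libraries, with 12304916 to 17262383 counts each. Nothing in the labels ties a replicate to its own culture or animal; the p-values below therefore reflect library-to-library spread, part or all of which may be technical.

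Microglia are the resident macrophages of the brain. LPS, from the outer membrane of Gram-negative bacteria, binds CD14 and the TLR4-MD-2 receptor complex; signalling then runs through NF-kB and MAP kinases and, from endosomes, through IRF3 and secreted interferon, so that early and late waves of genes are induced. ApoA-I is the main protein of high-density lipoprotein and takes up cholesterol from cells by way of the transporter ABCA1. Removal of cholesterol from the plasma membrane is known to alter TLR4 signalling in macrophages.

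The tables list genes by Ensembl identifier only. None of the 47357 genes in the RefSeq table used here (assembly GRCr8) carried such an identifier, and no member could therefore be given a symbol, a function, a position or a promoter sequence. For the same reason the microglial label was not checked against marker genes. The text prints 4 identifiers and calls other members by their rank in mean LPS level, from 1 (highest) to 58. In bulk RNA, fewer cells of a type and less RNA per cell cannot be told apart.

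The 58 members covered a wide range of levels. Mean TPM in LPS libraries ran from 5.50 to 3715, with a median of 85.8; 26 members were above 100 TPM and 5 above 1000 TPM. In Control libraries the median was 15.7 TPM, the highest mean was 374 TPM, and 4 members were below 1 TPM. Most members were thus already transcribed without LPS. On the log2(TPM + 1) scale, 25 members rose with LPS by 1.5 to 2, 23 by 2 to 3 and 10 by 3 or more, and the median rise was 2.16. The median over all genes tested was -0.37 on this scale.

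**Figure D1:**
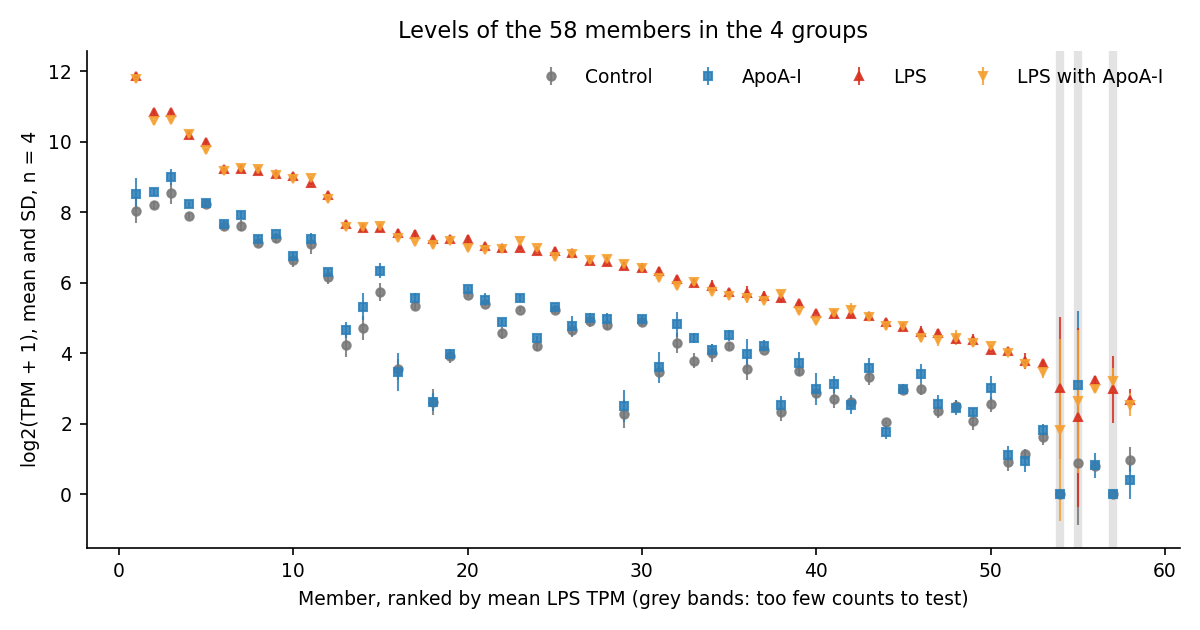
Levels of the 58 members on the log2(TPM + 1) scale, each point the mean of 4 libraries with its SD, ordered by mean LPS TPM. For tested members, LPS and LPS with ApoA-I lie close together and Control and ApoA-I lie below. The 3 members under grey bands had too few counts to be tested. Of these, the 2 LPS groups lie apart at rank 54, and ApoA-I lies above LPS at rank 55.

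The rule's edges fell within a continuum. The members closest to the limit on the ApoA-I difference had absolute values of 0.2464 and 0.2445, and the nearest genes outside it 0.2521 and 0.2540. For the rise with LPS, the closest members were at 1.512 and 1.520 and the nearest genes outside at 1.497 and 1.491. For the LPS level, the closest members had 5.50 and 8.24 TPM and the nearest genes outside 4.75 and 2.78 TPM.

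Enough counts for a test were present in 55 of the 58 members. The other 3, ranks 54, 55 and 57, passed the rule on very few reads. Rank 54 had TPM values of 13.29, 19.33, 13.49 and 0 in the 4 LPS libraries and 43.19, 2.54, 0 and 0 with ApoA-I, and these rested on 0.86 and 0.91 estimated counts over each group. Ranks 55 and 57 had 7 and 9 counts over the LPS libraries and 9 and 11 with LPS and ApoA-I. Rank 55 was higher with ApoA-I alone than with LPS, with means of 12.96 and 10.29 TPM. The ratio of counts to TPM gives each gene's length relative to the others, and these 3 had a median of 0.00904 of the median tested gene, so single reads stood for several TPM. Rank 57 had 0 TPM in every Control library and 8.12, 4.40, 3.19 and 17.27 TPM with LPS, so its groups did not overlap even on so few reads. Leaving these 3 out, the list held 55 genes.

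Summed over the 58 members, Control libraries held 2964.66, 3317.23, 2729.59 and 3516.01 TPM in replicates 1 to 4. ApoA-I libraries held 4297.44, 3717.23, 3685.86 and 3438.29 TPM. LPS libraries held 16321.9, 16123.5, 16086.0 and 17628.9 TPM, and libraries with LPS and ApoA-I held 15517.3, 16036.5, 15238.6 and 15149.8 TPM. Both LPS groups lay far above both groups without LPS, and the ranges of Control and ApoA-I overlapped. Every library with LPS and ApoA-I was below every LPS library, the closest pair being 16036.5 and 16086.0 TPM. The sum weighs the most abundant members most. By mean TPM, 39 of the 58 members were lower with both agents than with LPS and 19 were higher. The mean sum was 5.28 times the Control mean in LPS libraries and 4.09 times the ApoA-I mean in libraries with both agents. LPS replicate 4 stood apart; without it the LPS mean was 16177.1 ± 126.8 (SD, n = 3), against 16540.1 ± 733.2 (SD, n = 4) with it and 15485.5 ± 399.3 (SD, n = 4) with ApoA-I.

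**Figure D2:**
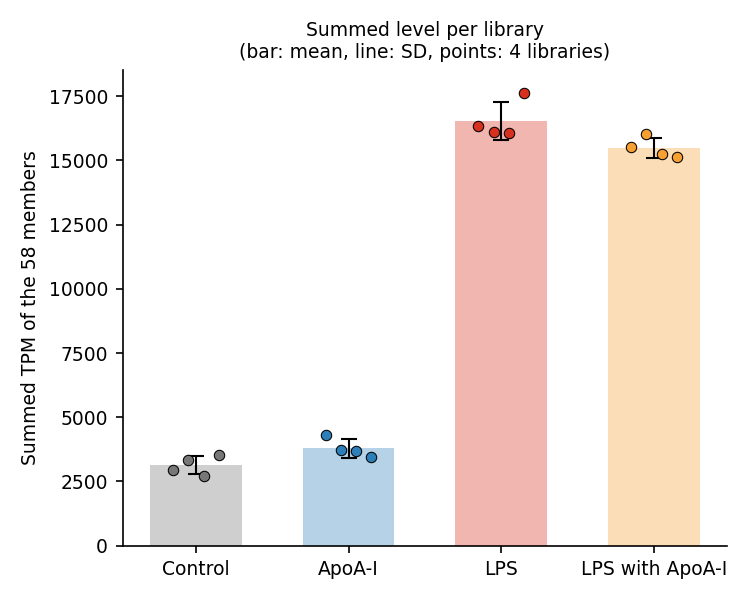
Summed TPM of the 58 members per library (points), with the mean of each group (bar) and its SD (line). LPS libraries lie between 16086.0 and 17628.9 TPM and libraries with both agents between 15149.8 and 16036.5 TPM.

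A few members carried most of the members' TPM in libraries given LPS, and a smaller share in the others. The 5 most abundant held 57.7% ± 0.231 of the members' TPM in LPS libraries, 55.9% ± 0.284 in libraries with both agents, 47.0% ± 0.972 in Control and 49.4% ± 1.22 in ApoA-I libraries (SD, n = 4 each). Rank 1 had 231.62, 279.89, 203.19 and 363.07 TPM in Control libraries and 3705.30, 3620.65, 3539.08 and 3994.16 TPM with LPS. It had 3448.03, 3723.62, 3397.68 and 3313.19 TPM in libraries with LPS and ApoA-I. Its LPS values overlapped with and without ApoA-I, and all were far above its Control values. Its ApoA-I libraries had 555.86, 351.41, 345.16 and 269.61 TPM and overlapped with Control.

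Of the printed identifiers, ENSRNOG00000013862 (rank 18) had the largest rise with LPS among tested members. Its Control values were 3.79, 7.13, 4.06 and 6.03 TPM and its ApoA-I values 5.48, 6.33, 5.26 and 3.74 TPM. With LPS it had 158.58, 144.01, 150.93 and 146.89 TPM, and with LPS and ApoA-I 142.93, 140.87, 125.77 and 128.23 TPM. The groups without LPS overlapped, and the libraries with both agents were all below those with LPS alone, though by little. The fitted rise was 5.28 log2 units (SE 0.13) without ApoA-I and 5.05 (SE 0.13) with it.

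ENSRNOG00000003947 (rank 29) had the next largest rise. It had 3.16, 4.10, 2.65 and 5.93 TPM in Control libraries and 7.84, 4.29, 3.99 and 3.34 TPM with ApoA-I. With LPS it reached 85.12, 86.32, 85.80 and 91.07 TPM, and with both agents 95.40, 92.57, 86.74 and 93.01 TPM. Here the groups with and without ApoA-I overlapped in both states. ApoA-I changed it by -0.06 log2 units in LPS-treated cells, with a 95% interval from -0.36 to 0.24 on counts scaled by TMM (trimmed mean of M values, which sets library sizes from the bulk of genes).

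The members were set against the other LPS-induced genes, as a description. Of the 396, the 58 members made up 14.6%, while 153 fell by 1 log2 unit or more with ApoA-I and 159 by 0.25 to 1. Another 11 were 0.25 to 0.5 higher and 15 were higher by 0.5 or more. The median Control level was 15.7 TPM in members and 1.48 TPM in genes lowered by 1 or more, and 41.2% of the latter but 6.90% of members were under 1 TPM. The median rise with LPS was 2.16 and 2.97 log2 units. Of the genes lowered by 1 or more, 43 had risen by 4 log2 units or more, and of the members 2. The 159 genes lowered by 0.25 to 1 were closer to the members. Their median Control level was 10.98 TPM, 8.81% were under 1 TPM, the median rise was 2.28 and 15 had risen by 4 or more. Genes raised by 0.25 to 0.5 and by 0.5 or more had median Control levels of 4.84 and 4.76 TPM. Their median rises were 2.495 and 1.968, and 18.2% and 20% were under 1 TPM. These levels entered the choice and were not tested. The summed level of the genes lowered by 1 or more went from 52572.6 to 15067.1 TPM, while the members' sum was 0.936 of its LPS value.

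**Figure D3:**
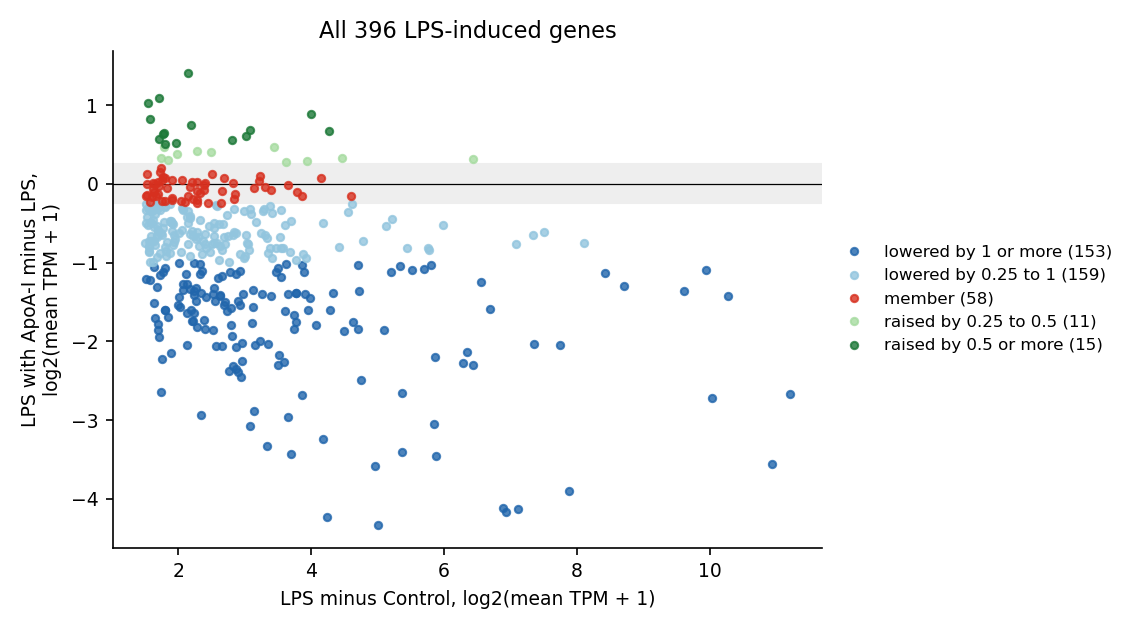
All 396 LPS-induced genes by their rise with LPS (horizontal) and their change with ApoA-I in LPS-treated cells (vertical), both as log2 ratios of mean TPM + 1. The 58 members fill the grey band within 0.25, and the 2 with rises of 4 or more reach 4.15 and 4.59. Genes lowered by 1 or more extend further right, as do some that were lowered by less or raised.

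Whether ApoA-I changed the members in cells without LPS could be tested, since the ApoA-I libraries were not used to choose them. Their Control libraries were, and a rule that asks for a low Control level favours genes that read low there, and so a positive difference. ApoA-I was higher than Control in 11 of 55 tested members and lower in 1 (edgeR quasi-likelihood test, adjusted p under 0.05), or 21.8%. Over all 11902 genes tested, 4.27% were called, 2.50% higher and 1.77% lower. The 11 members rose by 0.24 to 0.60 log2 units. The estimate was positive in 42 members, with a median of 0.12, against -0.000276 over all genes. In 9 of 55 members (16.4%) every ApoA-I library was above every Control library by TPM, against 5.96% of all tested genes.

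Other LPS-induced genes had shares of the same order in ApoA-I against Control. Of 157 tested genes lowered by 0.25 to 1 with ApoA-I under LPS, 30 were higher and 4 lower (21.7%). Of 145 lowered by 1 or more, 14 were higher and 6 lower (13.8%). Among genes that were higher with ApoA-I under LPS, 3 of 11 raised by 0.25 to 0.5 (27.3%) and 4 of 15 raised by 0.5 or more (26.7%) were higher, with 0 lower in both. They were chosen on the same low Control level, and differences between these shares were not tested. On the absolute scale the members' change with ApoA-I alone had a median of 3.26% of their rise in TPM with LPS (-13.9% to 21.1%). The rule asks for a large rise with LPS, which favours a low share, so these values are a description. The lowest value was that of rank 58, which had 12 counts over the Control and 4 over the ApoA-I libraries.

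**Figure D4:**
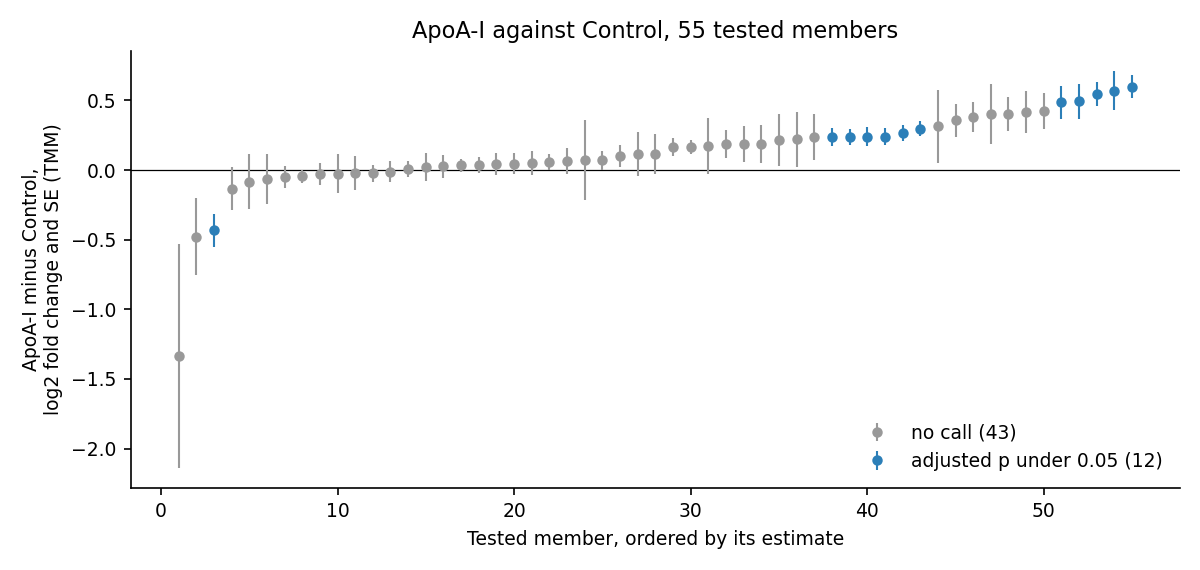
Log2 fold change of ApoA-I against Control for the 55 tested members, each with its SE, ordered by size. Of the 12 called members (blue), 11 lie between 0.24 and 0.60 and 1 lies at -0.43.

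Rank 33 had the largest called rise with ApoA-I alone. It had 12.95, 13.79, 10.30 and 14.64 TPM in Control and 23.04, 21.12, 20.26 and 17.97 TPM in ApoA-I libraries, with no overlap. The change was 0.60 log2 units (SE 0.082, edgeR adjusted p = 0.000297; 1.41e-09 to 0.0206 over 22 other fits). With LPS it had 59.47, 64.12, 61.37 and 66.90 TPM and with both agents 64.03, 61.21, 69.66 and 60.87 TPM, so that these groups overlapped.

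Rank 15 had 46.50, 60.94, 43.07 and 60.58 TPM in Control and 100.72, 75.21, 77.22 and 70.34 TPM in ApoA-I libraries. It rose by 0.54 log2 units (SE 0.085, edgeR adjusted p = 0.00104; 8.65e-08 to 0.0335 over the other fits). Its libraries with both agents, at 193.86, 195.37, 195.89 and 193.87 TPM, lay within the spread of the LPS libraries, at 186.71, 181.81, 174.64 and 199.41 TPM. Rank 2 rose from 277.57, 310.83, 271.89 and 312.22 TPM to 380.83, 355.55, 410.03 and 364.79 TPM, by 0.30 log2 units (SE 0.056, edgeR adjusted p = 0.00395; 1.65e-07 to 0.0460 over the other fits). Unlike ranks 15 and 33, rank 2 had libraries with both agents, at 1551.09, 1550.19, 1537.05 and 1545.70 TPM, that all lay below its LPS libraries, at 1806.31, 1784.09, 1752.95 and 1983.72 TPM. Ranks 2, 15 and 33 were called in each of the 22 other fits, and the other 9 called members lost the call in at least 1.

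ENSRNOG00000050983 (rank 44) was the member called lower. It had 3.16, 3.22, 2.97 and 3.13 TPM in Control and 2.32, 1.86, 2.73 and 2.79 TPM in ApoA-I libraries, again without overlap. The change was -0.43 log2 units (SE 0.12, edgeR adjusted p = 0.0442), and the adjusted p was 0.0159 to 0.164 over 22 other fits, 14 of which lost the call. With LPS it had 29.76, 27.55, 30.15 and 27.61 TPM and with both agents 26.95, 28.95, 24.39 and 24.79 TPM. Its LPS-treated libraries overlapped with and without ApoA-I.

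The number of calls in ApoA-I against Control turned on single libraries. It was 3 without ApoA-I replicate 1, 5 without Control replicate 1, 7 without Control replicate 2 and 4 without Control replicate 3. A fit of the 8 Control and ApoA-I libraries alone gave 3 calls in 54 members, and limma on log2(TPM + 1) gave 5 in 58. Over all genes the share called was also lower, at 1.55% without ApoA-I replicate 1, 0.815% with the 8 libraries and 0.578% with limma. It was 4.27% in the main fit. DESeq2 gave 16 calls in 55 members (6.77% of all genes), and a fit with no filter gave 17 in 58 (3.67%). ApoA-I replicate 1 was the highest of its group in 37 of 55 members, and Control replicate 3 was the lowest of its group in 36. The same counts over all genes are not given here, so a shift of the whole library cannot be told apart from one of the members. Their part in the calls was not tested beyond leaving them out.

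LPS with ApoA-I against LPS is the comparison the rule used, so its values, counts of calls included, describe the members chosen and support nothing about them. By mean TPM, 39 members were lower and 19 higher, from -0.25 to 0.20 log2 units with a median of -0.07. The median over all tested genes was 0.13 on this scale. With TMM scaling of the counts the median of the members was -0.22 and that of all genes 0.03. On either scale the members' median thus lay below that of all genes. The TMM estimate was lower than the TPM estimate in each of the 55 tested members, by a median of 0.14 log2 units (the differences ran from -0.17 to -0.01).

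The size of this shift bears on the name given to the list. With TMM scaling, 32 of 55 members stayed within 0.25, 23 were lower by 0.25 or more and 0 were higher by that much, and over all genes 42.3% were within 0.25. By edgeR's call rule 26 of 55 members (47.3%) were lower and 0 higher, by 0.16 to 0.42 log2 units, where 24.9% of all tested genes were called lower and 26.4% higher. With library totals in place of TMM, 4 of 55 were lower and 1 higher, where 52.7% of all genes were called in either direction. Limma on log2(TPM + 1) also gave 4 and 1, of 58 members, where 32.6% of all genes were called. DESeq2, with its own size factors, gave 29 of 55 lower and 0 higher, where 51.8% of all genes were called. The count thus differed with the scaling, and nothing is read from it about an effect of ApoA-I. The members are therefore called here by their rule and not as genes that ApoA-I leaves unchanged.

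**Figure D5:**
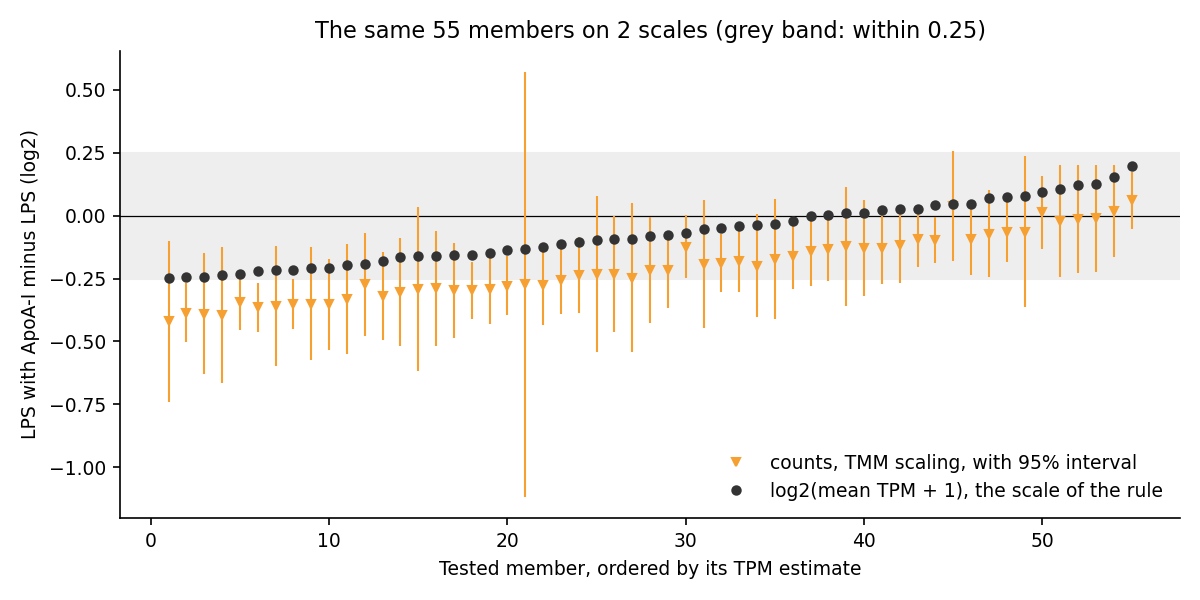
Change with ApoA-I in LPS-treated cells for the 55 tested members, as log2 ratio of mean TPM + 1 (black) and from TMM-scaled counts with a 95% interval (orange). Every orange point lies below its black point, and 23 lie at or below -0.25.

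The intervals of these estimates describe their precision; since the members were chosen for a change near 0 in the same libraries, they set no limit on the change. On the TMM scale the 95% interval had a median width of 0.36 log2 units. It lay within 0.5 of 0 in 41 of 55 members and within 1 in 54. The exception was rank 58, the least abundant member, with an interval from -1.12 to 0.57. By TPM, 44 of 58 members overlapped between the 2 groups, 12 had every library with ApoA-I below every LPS library and 2 had every one above, where over all tested genes 15.3% were below and 32.1% above.

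Rank 4, at over 1000 TPM, was among the members with little change on either scale. Its LPS libraries had 1145.69, 1209.20, 1175.47 and 1131.59 TPM and those with ApoA-I 1207.65, 1205.67, 1154.70 and 1185.12 TPM. The values overlapped, and the TMM estimate was -0.09 log2 units with an interval from -0.21 to 0.02. Rank 23 was 1 of the 2 members that lay entirely above, with 126.52, 123.27, 118.42 and 128.93 TPM in LPS and 136.57, 146.91, 142.92 and 144.39 TPM with ApoA-I. Its TMM estimate was 0.06, with an interval from -0.05 to 0.17.

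ENSRNOG00000026702 (rank 56) had the lowest TMM estimate of the 55 tested members. It had 0.62, 0.76, 0.85 and 0.68 TPM in Control and 1.51, 0.77, 0.47 and 0.49 TPM in ApoA-I libraries. With LPS it had 8.93, 7.43, 8.71 and 8.76 TPM, and with both agents 6.50, 6.78, 6.99 and 7.62 TPM. The LPS groups overlapped through LPS replicate 2. The estimate was -0.42 log2 units, with an interval from -0.74 to -0.10.

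The response to LPS in the presence of ApoA-I was read by setting cells given both agents against cells given ApoA-I, a comparison of which the rule used the first group only. The rule keeps that group close to LPS and so high, and the counts here are a description. All 55 tested members were called higher, by 1.43 to 5.05 log2 units with a median of 2.28, where 69.4% of all tested genes were called, 34.5% higher and 34.8% lower. Without ApoA-I all 55 were higher by 1.91 to 5.28 log2 units with a median of 2.68, as the rule requires, where 74.7% of all genes were called, 36.3% higher and 38.4% lower. Every tested member had both LPS groups above its matching group without LPS in every library, where 16.1% of all genes did so without ApoA-I and 13.9% with it. Over all genes, 52.8% lay entirely below without ApoA-I and 50.1% with it. The rise with ApoA-I was smaller than that without it in 50 of 55 members, and the median ratio of the log2 changes was 0.861 (quartiles 0.800 and 0.945). The rule chose low Control and high LPS levels, which favours a larger rise without ApoA-I and so a ratio under 1.

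The interaction sets the change with ApoA-I in LPS-treated cells against that in untreated cells. The rule holds the first of these changes near 0 by TPM and, through low Control levels, favours a positive second one, which favours a negative interaction; its values are a description. It was called negative in 32 of 55 members and positive in 0 (58.2%), with values from -0.85 to -0.21 log2 units. Over all genes 41.0% were called, 20.2% negative and 20.8% positive. The count fell to 17 of 55 with library totals, where 38.1% of all genes were called. It fell to 12 of 58 with limma on log2(TPM + 1), where 22.1% of all genes were called. Again 0 members were positive in both fits. Rank 33 had an interaction of -0.73 (SE 0.11), and ENSRNOG00000013862 one of -0.23 (SE 0.20).

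No condition of the rule was set on length, read assignment or replicate spread, and these are given as descriptions. Length still entered the rule through TPM, which is corrected for it. The median length of members, from the ratio of counts to TPM, was 0.833 of the median tested gene (quartiles 0.565 and 1.27), against quartiles of 0.624 and 1.56 for all tested genes. Every count was a whole number in 51 members (87.9%, by a tolerance of 0.005), against 91.0% of tested genes. In 5 members (8.62%), most counts were not whole, against 6.95% of tested genes; RSEM divides reads that match several genes, so the levels of these 5 are less certain. The spread between replicates was small in most members, with a median coefficient of variation of 6.20% in LPS libraries and 4.36% in libraries with both agents. The highest values were 127% and 185%, in ranks 55 and 54, which had too few counts to be tested. For the 7831 tested genes of at least 5 TPM with LPS the medians were 8.23% and 6.01%. These genes were not matched to the members for level.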

How the data were processed

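The authors deposited estimated counts per gene, not normalized, and TPM, in 1 column for each of 16 libraries; groups come from the sample titles. The submitters' processing notes name STAR 2.7.10b, RSEM 1.3.1 and cutadapt 1.8.1 but not how each was run, and the mouse build mm10, while the identifiers are those of rat; for the annotation, nothing is given in the sources used here. Members were chosen on deposited TPM as stated in the report; the members and lists were chosen with earlier results of these data known. Expected counts were rounded, genes kept by filterByExpr (minimum count 10), and all libraries fitted together by edgeR 4.0.16 (R 4.3.3) with TMM scaling and its quasi-likelihood test. Benjamini-Hochberg adjustment covered all 11902 genes tested (threshold 0.05), and each SE was derived from the fold change and the test's F value. Alternatives were library totals, DESeq2 1.42.0, limma 3.58.1 on log2(TPM + 1) with a pseudocount of 1, no filter, a replicate block, only the 8 libraries compared, and leaving out each library. The tests were tried on simulated data.

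The rule for naming genes was to use symbols; with none matched, it allowed at most 2 identifiers that rose and 2 that fell, by the largest change. The 17 functional gene lists, 7 marker lists and the promoter motif search could not be applied. Members named by rank were chosen after their values were seen. In each of 24 replicate pairs, counts differed beyond sampling noise (the ratio of chi-square to its degrees of freedom ran from 3.07 to 89.8), and all libraries were counted separately.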

Additional observations from a re-analysis of the deposited data

Results flagged for a closer look

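The summed TPM of the members in LPS replicate 4, 17628.9, lay far from the other 3 LPS libraries, which held 16086.0 to 16321.9 TPM. That library was the highest of its group in 41 of 55 tested members. For ENSRNOG00000026702, LPS replicate 2 had 7.43 TPM and stood apart from the other LPS libraries, which had 8.71 to 8.93 TPM. By the same measure 1 library stood apart in 17 of 228 member and group combinations. Chance gives about 1 in 20, and members of 1 library are not independent. LPS replicate 4 also differed from its group beyond the members. Over all genes with enough counts, the ratio of chi-square to its degrees of freedom was 73.2 to 89.8 against each other LPS library. Among those other libraries it was 3.88 to 5.05.

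The interaction of LPS and ApoA-I was called in 32 of 55 tested members by edgeR, with a negative value in each, where 41.0% of all tested genes were called in either direction. It was called in 17 of 55 with library totals and in 12 of 58 with limma, where 38.1% and 22.1% of all genes were called. The rule used 3 of the 4 groups in this contrast and favours a negative sign, so the count supports nothing about the members.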

How the results depend on the processing

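The rule gave 54 to 65 genes when 1 library was left out (50 to 58 of them members), 38 with an ApoA-I limit of 0.15 and 93 with 0.35. On TMM-scaled CPM it gave 78 genes, of which 32 were members (55.2% of the members and 41.0% of that list); of the 26 members lost, 22 fell by 0.25 or more. On CPM by library totals, an alternative chosen after seeing the data, it gave 65 with 54 members. Calls in ApoA-I against Control numbered 3 to 18 with 1 library left out, 5 with limma and 3 with only the 8 libraries compared. Over all genes 0.578% were called with limma and 0.815% with the 8 libraries. Calls in LPS with ApoA-I against LPS numbered 5 with library totals, 5 with limma and 41 with only the 8 libraries compared. Over all genes 52.7%, 32.6% and 56.9% were called in these fits. Interaction calls numbered 17 with library totals and 12 with limma, where 38.1% and 22.1% of all genes were called. Calls of LPS against Control (55 to 57) and of LPS with ApoA-I against ApoA-I (54 to 56) stayed within 1.5 times under all 22 alternatives. Same-numbered replicates did not deviate together (3 of 24 pairs had a correlation over 0.1, range -0.179 to 0.176). No sign of pairing was thus seen, but deviations from means of 4 libraries cannot exclude a small shared effect. With a replicate block the calls were 26 in LPS-treated cells with against without ApoA-I and 10 for ApoA-I against Control. They were 28 for the interaction and 55 in each of the other comparisons. Why these counts moved was not tested. Depth limits the 3 members with under 12 counts in every group, and also rank 58, with 4 counts over the ApoA-I libraries.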
